A study of Mus musculus with 3 samples.

Results

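The cells described here are CD8 T cells of mouse blood with little RNA of the cytotoxic lineage genes Ccl5 and Nkg7, and they numbered 383 of 18885 filtered barcodes. They were chosen by measured counts: a barcode had at least 200 genes and at most 10% mitochondrial counts, at least 2 unique molecular identifiers (UMIs, 1 per captured RNA molecule) over Cd3e, Cd3d and Cd3g, at least 1 over Cd8a and Cd8b1, none of Cd4, at most 2 over Ccl5 and Nkg7, at most 1 over the B cell genes Cd79a and Cd79b, and under 3% of its UMIs from S100a8 and S100a9. The series measured blood leukocytes of C57/BL6J mice by droplet single-cell RNA sequencing in controls at 0 h (Con) and after 24 h (SD24h) and 48 h (SD48h) of sleep deprivation, with 1 library per group, each pooled from 3 mice. All groups shared the strain, the tissue and the lysis of red cells, and age was not given in the labels used here. Barcodes end in 1, 2 or 3. The labels do not say which group an ending belongs to, so the endings are called libraries 1, 2 and 3, and nothing about controls or time is drawn from them. There were 206 cells in library 1, 81 in library 2 and 96 in library 3, with 1190217, 507592 and 583936 UMIs in all. Cells are not replicates and a library is 1 sample, so no test was made. Intervals are 95% and cover counting error only, not the spread between mice. With pooled mice, the number of cells of a type in the blood and their recovery during preparation cannot be told apart.

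A CD8 T cell carries the CD8 alpha and beta chains, coreceptors that bind MHC class I while the T cell receptor reads the peptide held there. Naive CD8 cells travel between blood and lymph nodes under the guidance of the chemokine receptor CCR7 and depend on interleukin 7, while effector and memory cells gain chemokines, cytotoxic granule proteins and receptors for inflamed tissue. CCR9, a receptor for the chemokine CCL25 of thymus and small intestine, and Ly6C, a surface protein used to tell T cell states apart in mice, are both found on mouse CD8 cells.

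The genes that mark the cells differed in what they told apart. Levels are given in CPM, the UMIs of a gene per 1000000 UMIs of a class of cells in a library. Cd8b1, the CD8 beta chain, had 1142, 999 and 1017 CPM in libraries 1, 2 and 3, and Cd8a, the alpha chain, had 367, 372 and 295 CPM. CD4 cells with as little Ccl5 and Nkg7 had neither, since absence of both was required of them. They numbered 294, 154 and 199, also lacked Foxp3, and serve as the comparison class because their median depth was near: 5773, 6074 and 5744.5 UMIs per CD8 cell against 5714, 6041 and 5788 per CD4 cell. Ccr9 set the lineages apart, at 151, 138 and 151 CPM against 6.54, 1.05 and 4.21 CPM in CD4 cells. The remaining markers did not separate the classes by 2-fold in every library. Dapl1, a gene related to the death-associated protein Dap, had 344, 430 and 343 CPM against 296, 247 and 251 CPM in CD4 cells. Klk8, a serine protease, had 179, 236 and 190 CPM against 107, 140 and 115 CPM. Thy1, a surface glycoprotein of T cells, had 326, 406 and 301 CPM against 284, 244 and 213 CPM. All 3 were higher in the CD8 cells of every library by less than 2-fold. Il7r, the interleukin 7 receptor alpha chain, had 744, 713 and 658 CPM against 542, 780 and 750 CPM, so the order of the classes differed between libraries.

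**Figure D1:**
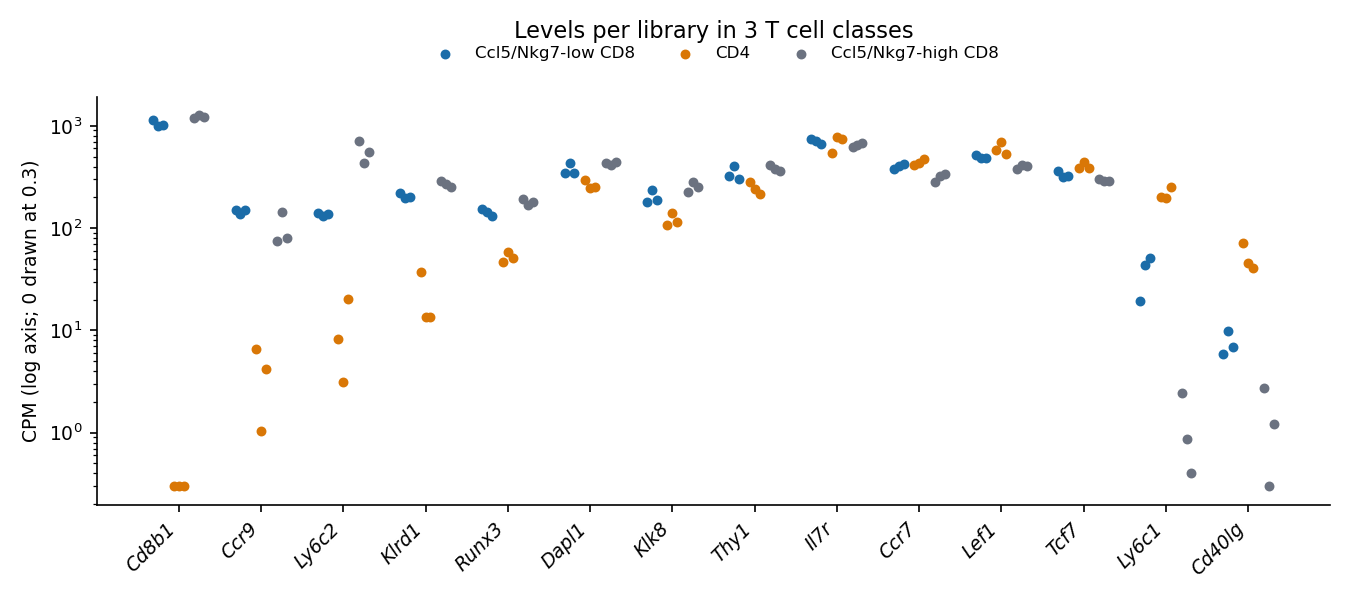
Levels in CPM, on a log axis with 0 drawn at 0.3, of 14 genes in the Ccl5/Nkg7-low CD8 cells, CD4 cells and Ccl5/Nkg7-high CD8 cells, 1 point per library in the order 1, 2, 3. Ccr9, Ly6c2, Klrd1 and Runx3 lay above CD4 cells in every library, Ly6c1 and Cd40lg lay below, and the naive genes Ccr7, Lef1 and Tcf7 lay close together.

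The limit on Ccl5 and Nkg7 acted mostly through Nkg7, a protein of cytotoxic granules. Ccl5, a chemokine of memory and effector cells, had 10 UMIs in 10 of the 383 cells, while Nkg7 had 349 UMIs. Above the limit, 552 of 813 CD8 cells also had no Ccl5 UMI, so a low Ccl5 count alone did not mark the cells, and they are called Ccl5/Nkg7-low here. The number of CD8 cells changed little across the limit: 145, 117 and 121 cells had 0, 1 and 2 UMIs, against 129, 100 and 89 cells with 3, 4 and 5. At 2 UMIs, just inside, Ccr9 had 162 CPM, Dapl1 443 CPM, Ly6c2 114 CPM, Cxcr3 6.32 CPM and Gzma 1.26 CPM over the 3 libraries. At 3 UMIs, just outside, Ccr9 had 138 CPM, Dapl1 563 CPM, Ly6c2 212 CPM, Cxcr3 5.51 CPM and Gzma 4.41 CPM. Ly6c2 was higher just outside, the other genes were close, and Gzma, a cytotoxic enzyme gene, rested on few UMIs on both sides. The contrast lay at the far end, where 217 cells with over 10 UMIs had 12.7 CPM of Ccr9, 1099 CPM of Ly6c2, 136 CPM of Cxcr3 and 342 CPM of Gzma. Depth moved with the count, with median UMIs per cell of 5817 at 1 UMI, 6507 at 2 UMIs and 7028 at 3 UMIs. Its part in where a cell fell was not tested.

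**Figure D2:**
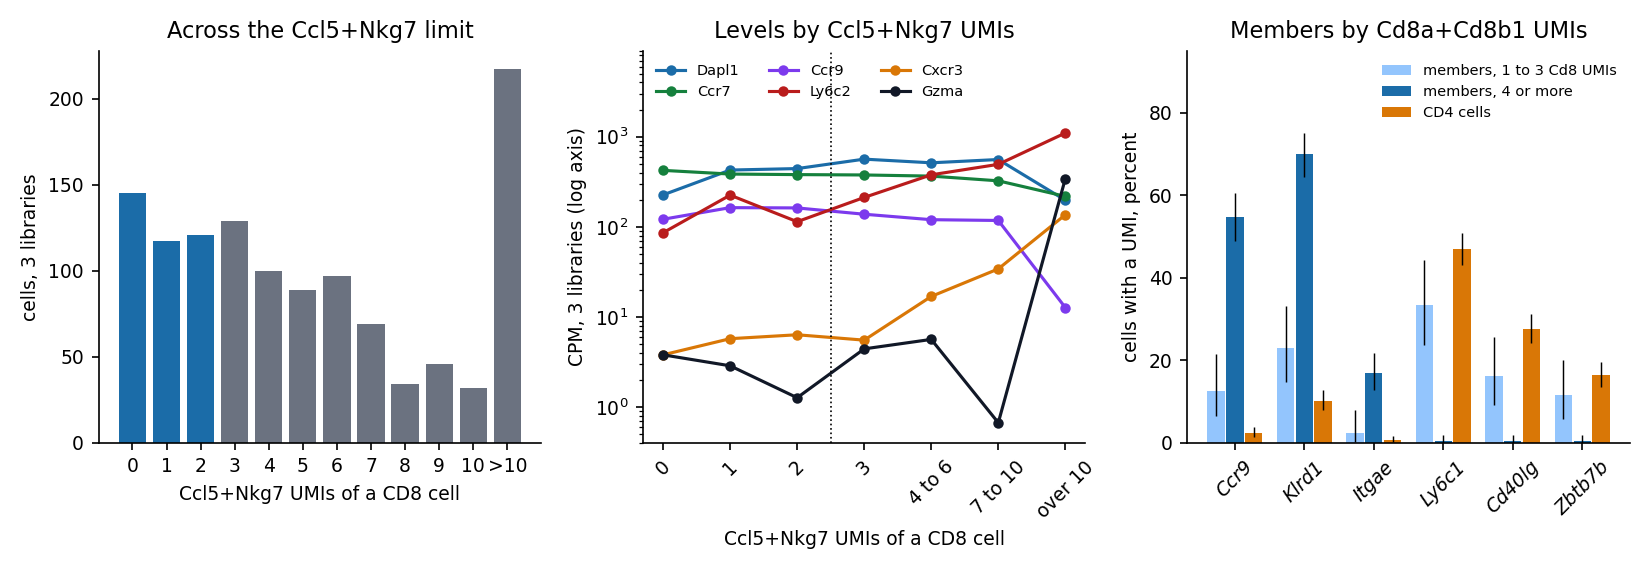
CD8 cells of the 3 libraries by their Ccl5+Nkg7 UMIs (left, chosen cells in blue), CPM of 6 genes by that count on a log axis (middle, limit dotted), and the percent of cells with a UMI by Cd8a+Cd8b1 UMIs and in CD4 cells (right, 95% exact binomial intervals). In the right panel the chosen cells with 1 to 3 Cd8 UMIs lie between those with 4 or more and CD4 cells for each of the 6 genes.

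The Ccl5/Nkg7-low CD8 cells made up 2.89% (2.52 to 3.31) of filtered barcodes in library 1, 1.35% (1.08 to 1.68) in library 2 and 1.66% (1.35 to 2.02) in library 3, with exact binomial intervals. Library 1 lay above the other 2 beyond counting error, but not above library 3 under the stricter filter of 500 genes and 5% mitochondrial counts (1.34%, 0.655% and 1.15%) or with Ccl5 at 0 and any Nkg7 (5.74%, 3.21% and 5.60%). Set against the T cells alone, defined by the same filters and Cd3 count, they were 17.3% (15.2 to 19.5), 15.3% (12.3 to 18.6) and 11.8% (9.66 to 14.2) of 1193, 531 and 814 cells. Here library 2 overlaps both others, and libraries 1 and 3 lie apart. There were 0.701 (0.584 to 0.840), 0.526 (0.397 to 0.693) and 0.482 (0.374 to 0.618) of these cells per CD4 cell. Under the stricter filter the ratios were 0.350, 0.614 and 0.514, so library 1 was lowest there and not highest. Of all CD8 cells they were 36.1% (32.1 to 40.2), 36.0% (29.7 to 42.6) and 24.0% (19.9 to 28.5), against 365, 144 and 304 CD8 cells with 3 or more Ccl5+Nkg7 UMIs. CD8 cells of both kinds numbered 1.94 (1.68 to 2.24), 1.46 (1.18 to 1.81) and 2.01 (1.69 to 2.39) per CD4 cell. The CD4 class took only cells with a Cd4 UMI and at most 2 Ccl5+Nkg7 UMIs. Another 252, 127 and 154 T cells with as little Ccl5 and Nkg7 had no Cd4 or Cd8 UMI and entered neither class. The ratios to CD4 cells are therefore not ratios of the whole lineages. Library 3 held the smallest share of low cells among its CD8 cells under this limit, while with Ccl5 at 0 and any Nkg7 the shares were 71.6%, 85.3% and 81.0% and library 1 was lowest.

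**Figure D3:**
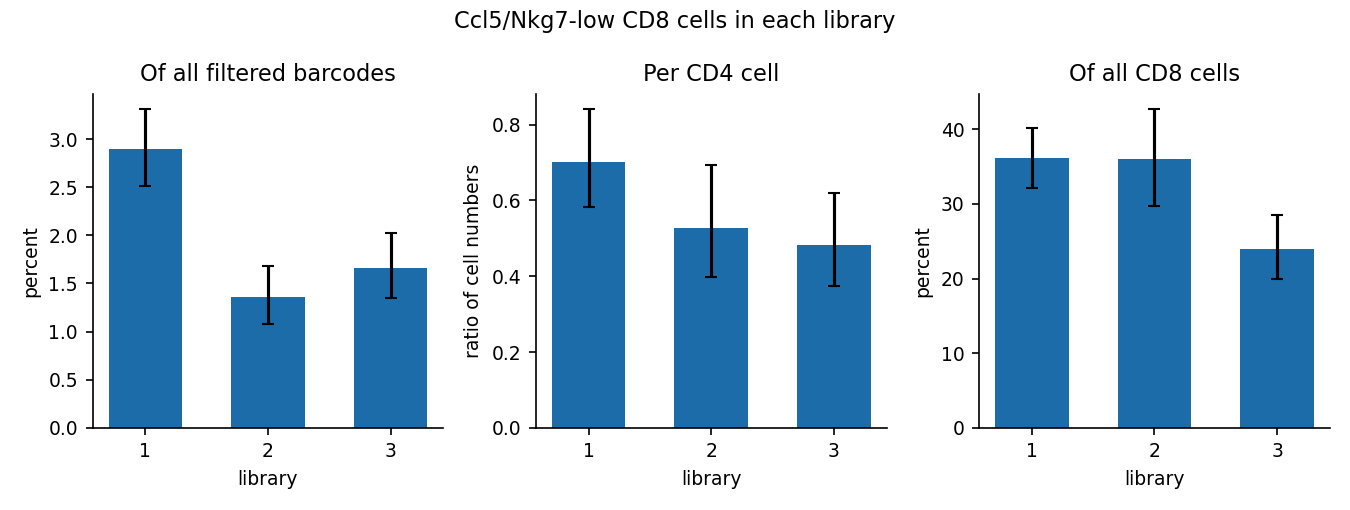
Ccl5/Nkg7-low CD8 cells in each library as a percent of all filtered barcodes, as a ratio to CD4 cells and as a percent of all CD8 cells, with 95% exact intervals for counting error only. The first panel is highest in library 1 (2.89%) and the last is lowest in library 3 (24.0%).

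Against CD4 cells of the same library, the chosen cells differed in few genes. A gene was called where its CPM differed at least 2-fold in the same direction in all 3 libraries, with at least 10 UMIs in the higher class of each and counts under 3 set to 3. Of 5765 genes tested, 37 were higher (0.642%) and 24 were lower (0.416%), with Cd8, Cd4, Ccl5, Nkg7 and the other genes of the choice left out. Genes tied to the CD8 or CD4 lineage move with the choice, so these are descriptions of the 2 lineages at low Ccl5 and Nkg7. The stricter filter left 21, 27 and 38 of the CD8 cells and called 7 higher and 8 lower genes. Ccr9 led the higher genes with 180, 70 and 88 UMIs against 11, 1 and 5 UMIs in CD4 cells, which was 23.1-fold (12.6 to 47.1) in library 1 and 35.8-fold (14.8 to 113) in library 3. A Ccr9 UMI was seen in 46.1%, 43.2% and 44.8% of the CD8 cells, against 3.4%, 0.649% and 2.01% of CD4 cells. In B cells, which should lack it, the share was 0.464%, 0.342% and 0.498%. After each cell was thinned to 1500 UMIs, which left out 3, 1 and 2 of the CD8 cells, the shares lay between 19.2% and 21.3%, with overlapping intervals in the 3 libraries.

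The other named higher genes included 2 homing genes, 2 protease or inhibitor genes and 1 receptor chain of the natural killer family. Cxcr6, the receptor of the chemokine CXCL16, had 48.7, 55.2 and 20.6 CPM against 4.16, 5.25 and 2.53 CPM in CD4 cells. Itgae, the integrin chain CD103 that binds E-cadherin, had 33.6, 27.6 and 27.4 CPM against 0.595, 5.25 and 2.53 CPM. Klrd1, the CD94 chain of killer lectin receptors, had 222, 199 and 202 CPM against 36.9, 13.6 and 13.5 CPM, or 6.02-fold (4.55 to 8.07), 14.6-fold (8.15 to 28.3) and 14.99-fold (8.86 to 27.1). These genes were named for a ratio of at least 2-fold in every library, so the gap between the classes is no separate result. Cst7, cystatin F, an inhibitor of cysteine proteases, had 42.8, 70.9 and 56.5 CPM against 7.14, 3.15 and 5.90 CPM, and Ctsw, cathepsin W, a protease of cytotoxic cells, had 108, 140 and 95.9 CPM against 20.8, 29.4 and 21.9 CPM. Lcn4, a lipocalin gene, had 45, 22 and 30 UMIs against 3, 1 and 1 UMIs in CD4 cells. Bend4 had 24, 12 and 17 UMIs against 0 in CD4 cells of all 3 libraries, at least 11.3-, 7.51- and 11.5-fold higher than a floor of 3 UMIs per library. Cst7 and Ctsw RNA was thus present in cells chosen for little Nkg7, though 58.7%, 63.0% and 63.5% of these cells held an Nkg7 UMI. With Ccl5 and Nkg7 both at 0, 21 of the 25 named genes no longer met the 2-fold rule or its minimum. The other named higher genes were Racgap1 (a GTPase-activating protein of cell division), Kcna2 (a potassium channel), Cxxc5, Ly6c2, Adgrg5 (an adhesion receptor), Actn2 (an alpha-actinin) and Fam241a, and their log2 ratios, with counts under 3 set to 3, lay between 2.23 and 5.37.

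**Figure D4:**
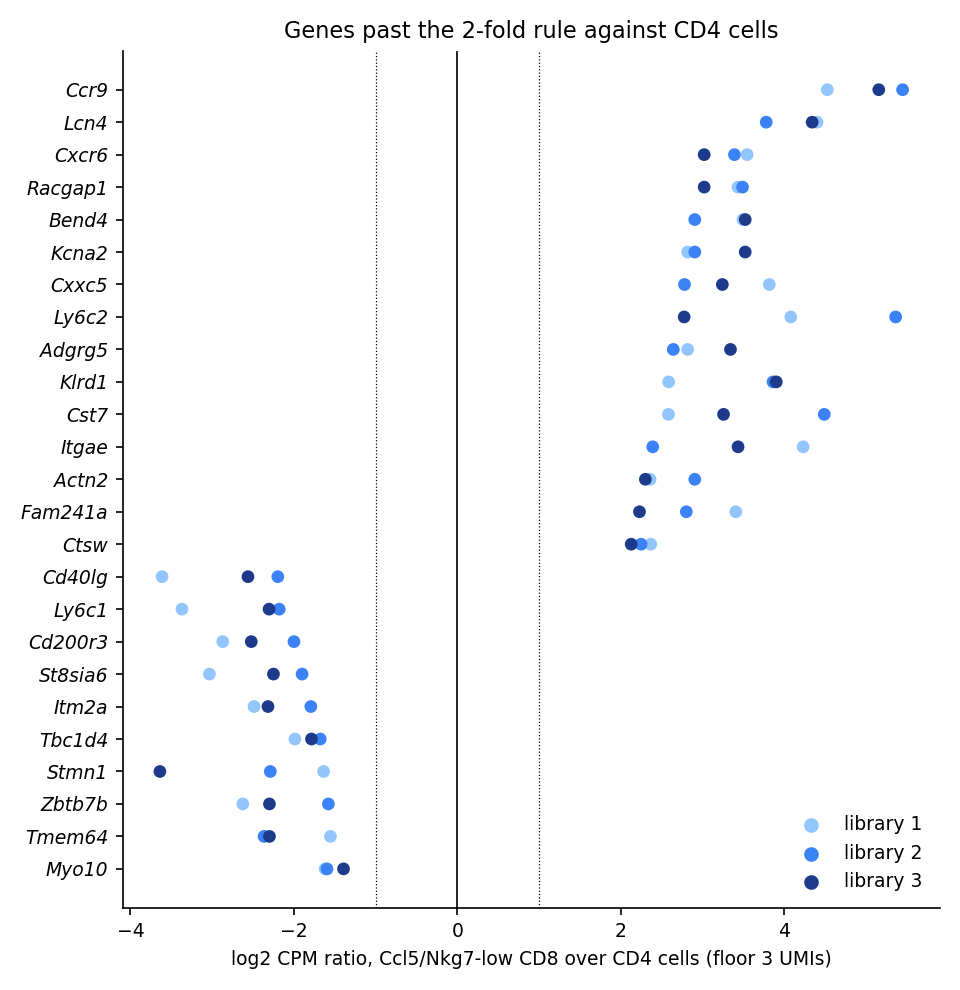
Log2 ratio of CPM in Ccl5/Nkg7-low CD8 cells over CD4 cells, counts under 3 UMIs set to 3, for the 15 named higher and 10 named lower genes, 1 point per library, with dotted lines at 2-fold. Every point lies beyond the 2-fold line, as the choice of the genes required.

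The lower genes included helper lineage genes. Cd40lg, the ligand with which helper cells activate B cells, had 5.88, 9.85 and 6.85 CPM in the CD8 cells against 72.0, 45.1 and 40.4 CPM in CD4 cells. Zbtb7b, the helper lineage transcription factor ThPOK, had 7, 5 and 1 UMIs against 61, 28 and 30 UMIs. St8sia6, a sialyltransferase, had 7, 6 and 2 UMIs against 81, 42 and 29 UMIs. The gap between the classes in these genes was required by their choice. A few helper transcripts were still present in cells without a Cd4 UMI. Itm2a, a membrane protein gene, had 10.9, 19.7 and 13.7 CPM against 61.3, 68.2 and 68.3 CPM, and Stmn1, a destabiliser of microtubules, had 15.1, 11.8 and 5.14 CPM against 47.0, 57.7 and 64.0 CPM. The remaining named lower genes were Ly6c1, Cd200r3 (a receptor of the CD200 receptor family), Tbc1d4 (a regulator of vesicle traffic), Tmem64 and Myo10 (an unconventional myosin). For Myo10 the CD8 cells held 2, 0 and 2 UMIs against 13, 17 and 16 UMIs in CD4 cells.

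Naive genes were shared by both lineages. Of 24 measured genes of naive and quiescent T cells, 0 were higher and 2 were lower, with list medians of log2 -0.15, -0.20 and -0.17 against 0.02, -0.02 and 0.00 for all 7092 genes measured. Over all genes tested, 0.642% were higher and 0.416% were lower, against which the list counts here are to be read. Ccr7 had 379, 406 and 423 CPM against 414, 428 and 469 CPM in CD4 cells. Lef1 and Tcf7, transcription factors of naive T cells, had 520, 487 and 488 CPM against 582, 692 and 532 CPM, and 359, 319 and 325 CPM against 386, 442 and 385 CPM. The 2 lower genes were Igfbp4, a binding protein for insulin-like growth factors, at 145, 404 and 392 CPM against 497, 1051 and 907 CPM, and Tspan32, a tetraspanin, at 113, 110 and 120 CPM against 271, 250 and 261 CPM. Among 11 tested transcription factors of the CD8 and CD4 lineages, Runx3, the factor that silences Cd4, was higher at 155, 144 and 132 CPM against 47.0, 57.7 and 50.6 CPM, and Zbtb7b was lower. Among 14 tested effector and memory genes 3 were higher, Il2rb, Klrd1 and Ly6c2, and the list medians were 0.72, 0.15 and -0.03. Il2rb, the interleukin 2 and 15 receptor beta chain, had 37.8, 23.6 and 29.1 CPM against 2.38, 6.30 and 6.74 CPM, and was the only gene past 2-fold among 20 tested cytokine receptor and signalling genes. Of 19 tested homing genes 3 were higher, Ccr9, Cxcr6 and Itgae. None of 21 T cell receptor signalling genes or 16 MHC class I genes tested was past 2-fold in either direction. Nor was any of the 16 glucocorticoid, 26 interferon, 11 immediate early, 10 heat shock, 16 survival and 7 circadian clock genes tested, and of 7 cell cycle genes 1 was lower, Stmn1.

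The Ly6C genes divided the lineages. Ly6c1 and Ly6c2 are near copies that lie beside each other on chromosome 15 (GRCm38, chr15:75044018-75048830 and chr15:75108158-75111970, both on the minus strand), and reads that both share could have been left uncounted or split. Ly6c2 had 141, 130 and 139 CPM in the CD8 cells against 8.33, 3.15 and 20.2 CPM in CD4 cells. Ly6c1 had 19.3, 43.3 and 51.4 CPM against 200, 196 and 254 CPM. At the level of cells, 83 of 383 CD8 cells had UMIs of Ly6c2 alone, 29 of Ly6c1 alone and 1 of both, against 9, 291 and 13 of 647 CD4 cells. Ly6a, their relative that encodes Sca-1, had 32.8, 114 and 202 CPM in the CD8 cells against 179, 366 and 488 CPM in CD4 cells. The 250 bases before the annotated start of Ccr9, the leading gene, and of this pair are shown because Ccr9 had the largest ratio and the pair ran in opposite directions between the lineages. They lie at chr9:123766961-123767210 on the plus strand for Ccr9, and at chr15:75111972-75112221 and chr15:75048838-75049087 on the minus strand for Ly6c2 and Ly6c1. They come from RefSeq on GRCm38.p6, with capitals marking TGTGGT or its reverse complement, the core motif of RUNX factors, searched on both strands.
Ccr9: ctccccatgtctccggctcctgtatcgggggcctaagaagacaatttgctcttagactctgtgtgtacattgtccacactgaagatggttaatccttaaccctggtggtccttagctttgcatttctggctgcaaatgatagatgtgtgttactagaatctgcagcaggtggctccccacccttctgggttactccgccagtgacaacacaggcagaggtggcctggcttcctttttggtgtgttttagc
Ly6c2: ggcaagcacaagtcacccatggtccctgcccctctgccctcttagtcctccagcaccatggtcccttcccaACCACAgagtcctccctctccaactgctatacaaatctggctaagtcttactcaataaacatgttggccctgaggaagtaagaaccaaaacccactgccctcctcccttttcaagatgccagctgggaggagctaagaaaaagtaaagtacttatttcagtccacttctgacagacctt
Ly6c1: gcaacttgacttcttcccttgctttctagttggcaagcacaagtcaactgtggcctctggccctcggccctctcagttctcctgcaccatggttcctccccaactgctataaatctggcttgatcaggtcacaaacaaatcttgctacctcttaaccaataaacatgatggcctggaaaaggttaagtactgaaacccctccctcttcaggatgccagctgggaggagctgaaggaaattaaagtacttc
The motif occurred in the Ly6c2 window and not in those of Ccr9 and Ly6c1. The Ly6c1 and Ly6c2 windows shared 164 of 216 aligned bases (75.9%). The motif was present in 14.2% of 27025 mouse promoter windows of this length, in 5 of the 11 named higher genes with a window and in 0 of the 7 named lower genes with one. Only the first listed start of each gene was searched, Ly6c2 and Ly6c1 each had 2 listed starts, and no enrichment was tested. A match is a description of letters in this window and not a bound site.

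The cells with the weakest CD8 counts held more transcripts of genes that were higher in CD4 cells. After the values had been seen, the cells were divided by their Cd8a+Cd8b1 UMIs: 87 had 1 to 3 (41, 19 and 27 per library) and 296 had 4 or more (165, 62 and 69). A Ly6c1 UMI was found in 29 of the 87 cells (33.3%, 23.6 to 44.3) and in 1 of the 296 cells (0.338%, 0.00855 to 1.87), against 47.0% of CD4 cells. Cd40lg was found in 16.1% of the 87 and 0.338% of the 296, against 27.7% of CD4 cells, and Zbtb7b in 11.5% and 0.338%, against 16.4%. In each of these 3 genes the cells with little Cd8 lay between the other classes, and the cells with 4 or more UMIs held a single positive cell. Ccr9 was found in 12.6% of the 87 and 54.7% of the 296, against 2.32% of CD4 cells. Klrd1 was found in 22.99% and 69.9%, against 10.2%, and Itgae in 2.30% and 16.9%, against 0.618%. CD8 genes thus ran the other way. Median depth was 4814 UMIs in cells with 1 to 3 and 6153 UMIs in those with 4 or more. Another 533 T cells with as little Ccl5 and Nkg7 had no Cd4 or Cd8 UMI. Among them Ly6c1 was found in 44.8%, Cd40lg in 22.5%, Zbtb7b in 14.3% and Klrd1 in 8.26%. Each of these shares had an interval overlapping that of CD4 cells. Of the 87 cells, 2 had a doublet score among the highest 6% of their library. Whether free RNA, doublets or undetected Cd4 placed the 87 cells among the chosen ones was not tested.

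Restricting the comparison to the 296 cells left the named higher genes as they were and brought Ly6c1 close to 0. Of 5324 genes tested, 39 were higher and 31 were lower than in CD4 cells. Ly6c1 had 0, 0 and 2.27 CPM in these cells against 200, 196 and 254 CPM in CD4 cells. Pdlim4, a cytoskeletal adaptor, joined the most changed genes with 7.86, 2.48 and 6.82 CPM against 85.7, 97.6 and 86.8 CPM. The 15 named higher genes were the same ones as among all 383 cells.

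Against CD8 cells with 3 or more Ccl5+Nkg7 UMIs, 4 of 5872 tested genes were higher (0.0681%) and 12 were lower (0.204%). This contrast was made by the choice itself, so nothing is read from the counts. The lower genes included effector genes: Gzma, granzyme A, had 4, 0 and 2 UMIs against 362, 56 and 273 UMIs in the other CD8 cells. Cxcr3, the receptor that guides cells to inflamed tissue, had 6.72, 3.94 and 3.43 CPM against 74.2, 40.2 and 40.0 CPM, and Eomes, a transcription factor of memory and cytotoxic cells, had 7.56, 5.91 and 6.85 CPM against 35.9, 21.9 and 30.7 CPM. Ly6c2 had 141, 130 and 139 CPM against 706, 433 and 552 CPM, so the low cells lay between CD4 cells and the other CD8 cells. Of 20 tested effector and memory genes 7 were lower. The higher genes were Ly6c1, Ldhb (a lactate dehydrogenase chain), Ccl6 (a myeloid chemokine) and Trat1 (a T cell receptor adaptor), the last at 52.1, 43.3 and 53.1 CPM against 20.4, 20.1 and 17.0 CPM. Of the Ccl6 UMIs, 15 of 23, 21 of 24 and 40 of 45 lay in 1 cell per library. Of the Ly6c1 UMIs, 74 lay in the 87 cells with 1 to 3 Cd8 UMIs and 1 in the 296 others, and with at least 4 Cd8 UMIs 1 gene was higher. Ccr9 had 151, 138 and 151 CPM against 75.6, 143 and 80.9 CPM, higher in libraries 1 and 3 and slightly lower in library 2.

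Between the 3 libraries, 373 of 3948 tested genes differed at least 2-fold from the lowest to the highest (9.45%), with at least 30 UMIs in the highest. The highest was library 1 for 244, library 2 for 56 and library 3 for 73 of them. The minimum of 30 UMIs is 25.2, 59.1 and 51.4 CPM in the 3 libraries, so a gene highest in library 1 passed it at a lower level. Without library 1, 35 genes differed between the other 2, against 207 without library 2 and 199 without library 3. Haemoglobin genes were left out of the ranking of genes to name: Hbb-bs had 261, 108 and 1940 UMIs, of which 1796 in library 3 lay in 1 cell. Of the 12 genes ranked first by the bound nearest to 0 of the ratio between libraries, several rested on single cells. Chil3, a chitinase-like gene of myeloid cells, had 1, 92 and 234 UMIs, of which 88 in library 2 and 230 in library 3 lay in 1 cell each. All 37 and 94 UMIs of Saa3, an acute phase gene, lay in 1 cell of library 2 and 1 of library 3, and all 162 UMIs of Apoe, apolipoprotein E, in library 2 lay in 1 cell. Wfdc21 and Hp, genes of myeloid cells, had 33 of 37 and 57 of 64 UMIs in 1 cell of library 3. These genes describe a few barcodes, not the CD8 cells. Retnlg, a neutrophil gene, had 1, 22 and 32 UMIs spread over 1, 17 and 25 cells.

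Ddit4, Ly6a and Socs3 were spread over many cells. Ddit4, a stress and glucocorticoid induced inhibitor of mTORC1, had 6.72, 33.5 and 68.5 CPM in 7, 13 and 30 cells, 10.2-fold (4.71 to 25.2) higher in library 3 than in library 1. In CD4 cells it had 13.1, 72.4 and 70.8 CPM and in B cells 9.59, 47.1 and 43.5 CPM, so library 1 was lowest in each class. Socs3, an inhibitor of cytokine receptor signalling, had 37.0, 138 and 199 CPM, against 41.0, 234 and 278 CPM in CD4 cells. Ly6a was likewise lowest in library 1 and highest in library 3 in both. A Ly6a UMI was found in 12.1%, 23.5% and 37.5% of the chosen cells. Among those with at least 4 Cd8 UMIs the shares were 9.09%, 11.3% and 30.4%, so libraries 1 and 2 were close there. Alox12, Litaf and F5 ran the opposite way. Alox12, a platelet lipoxygenase, had 153, 31.5 and 59.9 CPM, Litaf had 91.6, 11.8 and 34.3 CPM, and F5, coagulation factor V, had 43, 1 and 8 UMIs. The 8 measured platelet markers were all highest in library 1 and summed to 4377, 1716 and 1913 CPM, against 4435, 1727 and 2174 CPM in CD4 cells. The part of platelet RNA in these differences was not tested.

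**Figure D5:**
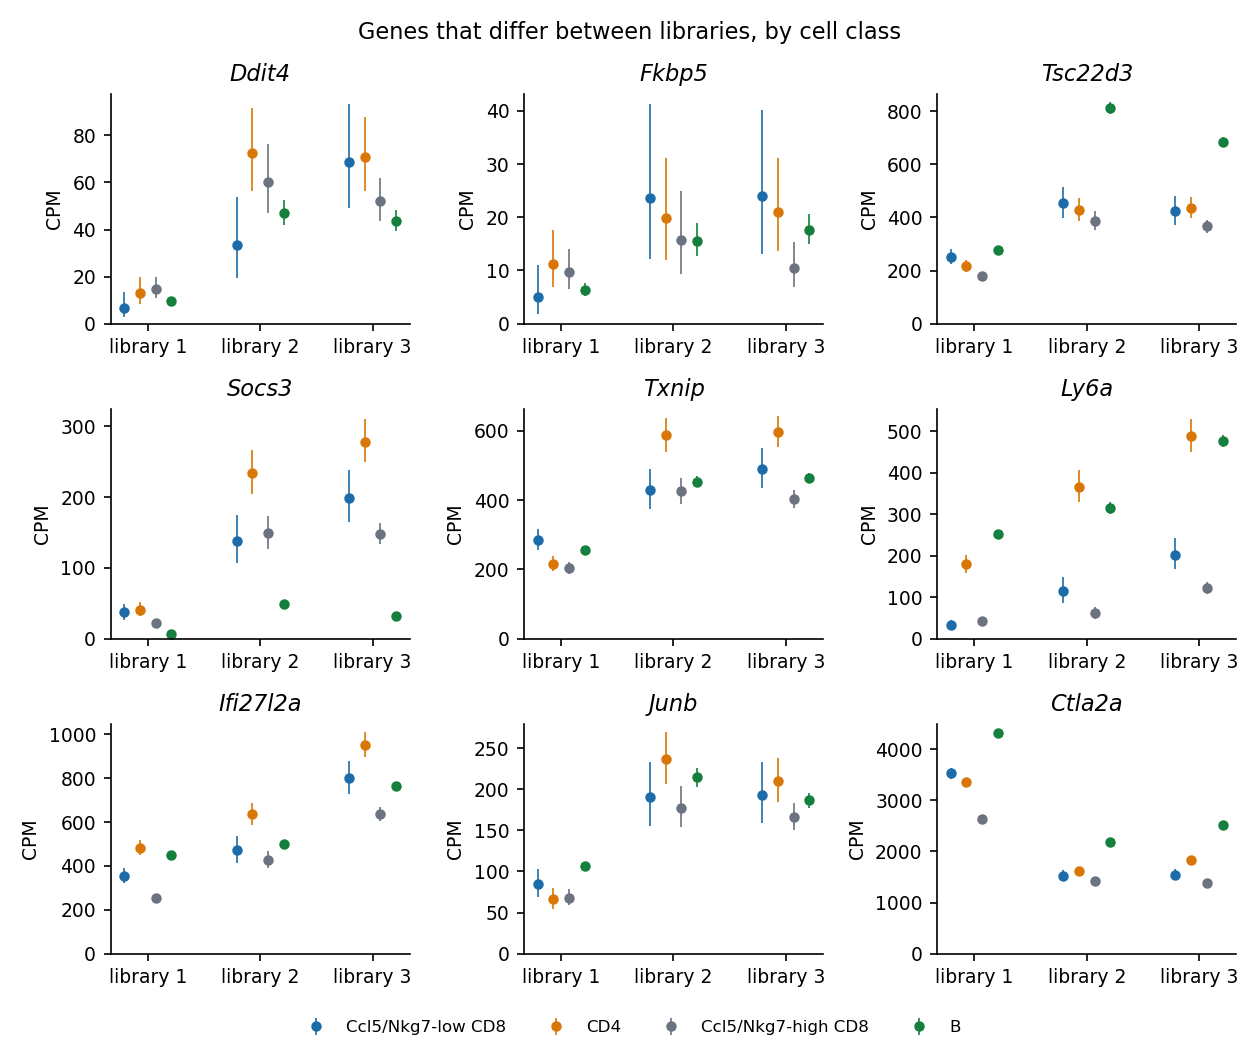
CPM of 9 genes in the Ccl5/Nkg7-low CD8 cells, CD4 cells, Ccl5/Nkg7-high CD8 cells and B cells of each library, with 95% Poisson intervals for counting error only. Ddit4, Fkbp5, Tsc22d3, Socs3, Txnip and Junb are lowest in library 1 in every class shown, with overlapping intervals for Fkbp5 in some of the classes, and Ctla2a is highest there.

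Among gene lists, glucocorticoid responsive and interferon responsive genes moved with the library. Values are medians over a list's genes of the log2 level in a library minus the mean of the 3 libraries, set relative to the same median over all measured genes. For 16 measured glucocorticoid genes they were -0.36, 0.11 and 0.11, and 12 of the 16 were lowest in library 1, as were 35.2% of all measured genes. Tsc22d3, the glucocorticoid induced leucine zipper GILZ, had 252, 453 and 423 CPM against 217, 428 and 436 CPM in CD4 cells. Fkbp5, a cochaperone of the glucocorticoid receptor, had 5.04, 23.6 and 24.0 CPM, and Txnip, an inhibitor of glucose uptake, had 286, 430 and 492 CPM. The same list had -0.42, 0.18 and 0.13 in CD4 cells and -0.50, 0.27 and 0.31 in B cells. The pattern was therefore present in other lymphocytes of the same libraries. Of the 14 glucocorticoid genes tested, 3 were past 2-fold between libraries, against 9.45% of all genes tested. For 27 interferon genes the medians were -0.29, -0.09 and 0.27, and 19 of 27 were highest in library 3, as were 33.5% of all measured genes. In CD4 cells it was likewise 19 of 27, with 33.0% of all measured genes. Ifi27l2a, an interferon induced gene, had 356, 473 and 801 CPM, with 88 of its 424 UMIs in library 1 and 52 of its 468 in library 3 in 1 cell each, and Ifit1, an antiviral translation inhibitor, had 15.96, 41.4 and 75.4 CPM. Of 21 interferon genes tested, 6 were past 2-fold, again against 9.45%. Immediate early genes had -0.24, 0.09 and 0.21, with Junb, an AP-1 subunit, at 84.9, 191 and 194 CPM. The marker genes of the cells that were not used to choose them had -0.07, 0.20 and -0.11. Naive genes had -0.02, -0.02 and 0.06, receptor signalling genes -0.10, 0.08 and 0.03, and MHC class I genes -0.08, -0.01 and 0.02. Effector and memory genes had 0.10, -0.16 and -0.05 with 3 of 14 tested past 2-fold. In the 296 cells with at least 4 Cd8 UMIs they had 0.54, 0.16 and -0.46. There 7 of 13 were past 2-fold, against 374 of 3479 measured genes tested. Monocyte markers were likewise lowest in library 3 in these 296 cells, at 0.54, 0.81 and -1.28. A single cell held 872 of their 1298 UMIs in library 1, and another 636 of 762 in library 2. The part of such cells in the effector values was not tested.

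RNA of other blood cells was present in the chosen cells. B cell markers summed to 583, 388 and 372 CPM, against 603, 286 and 398 CPM in CD4 cells, and 64 of the cells held the 1 Cd79a or Cd79b UMI that was allowed. Neutrophil markers summed to 318, 806 and 872 CPM, against 157, 1160 and 758 CPM. Monocyte markers summed to 1154, 1582 and 1569 CPM, of which 1 cell held 63.5%, 79.2% and 78.9%. Red cell markers summed to 854, 565 and 6508 CPM, with 89.8% in 1 cell of library 3. Libraries 2 and 3 thus held more neutrophil RNA and library 1 more platelet RNA, and a few cells carried most of the monocyte and red cell RNA. By limits of 10 UMIs of monocyte, 20 of neutrophil or 50 of haemoglobin genes, 11 cells (8, 1 and 2) carried RNA of another lineage. Markers of gamma delta T cells had 16, 3 and 0 UMIs, and Foxp3 had 1, 0 and 0 UMIs. The part of this RNA in the differences between libraries was not tested. Of barcode sequences, 61 were found in more than 1 library, and 5 of the 383 cells carried one.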

How the data were processed

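Blood leukocytes were measured in 3 droplet libraries, read here as 22204 barcodes by 31053 genes. The deposited values are raw UMI counts per gene and barcode, written by Cell Ranger 6.0.2 per the file headers. Cell Ranger 4.0.0, Trimmomatic 0.39, Seurat 3.0, R 4.0.2 and the build GRCm38 stand in the submitters' processing notes, and which Cell Ranger version set the counts was not given in the sources used here. Droplet counting of transcript ends makes levels depend on how well each gene's end is annotated.

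Deposited barcodes numbered 8815, 6648 and 6741 with 40807434, 30114546 and 36523283 UMIs, and 18885 passed the filters. Counts were summed per class and library and scaled to CPM, where 1 UMI is 0.840, 1.97 and 1.71 CPM in the CD8 cells. Log2 ratios set counts under 3 to 3. Intervals are exact binomial, Poisson or conditional at 95% and cover counting error only. The named genes were the 15 higher and 10 lower genes past 2-fold against CD4 cells with the largest ratio nearest to 0 over the libraries, the leading genes against the other CD8 cells, and the 12 with the largest lower bound of the ratio between libraries, leaving out the genes of the choice, antigen receptor segments, mitochondrial and haemoglobin genes, sex-linked markers and unnamed gene models. The members, the 27 gene lists and the comparisons were chosen with earlier results of these data known. A list gene was measured with at least 20 UMIs over the 3 libraries. The code was tested on simulated data. Scrublet scored doublets per library, and as its threshold failed in 1 library, the highest 6% of scores were left out as an alternative only. Other alternatives were a stricter filter (500 genes, 5% mitochondrial), other limits on Cd8, Ccl5 and Nkg7, other UMI minimums, TMM scaling and each library left out. Tools were numpy 2.4.6, pandas 2.3.3, scipy 1.17.1, scanpy 1.11.5, biopython 1.88, matplotlib 3.10.9, R 4.3.3 and edgeR 4.0.16 (TMM only). No comparison of the 3 groups was made.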

Additional observations from a re-analysis of the deposited data

How the results depend on the processing

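Leaving out cells with high doublet scores, cells with RNA of another lineage, or scaling by TMM kept the shares and ratios within their counting intervals and the counts of genes within 1.5 times. Without RNA of other cells, 44 genes were higher than in CD4 cells and 18 lower than in the other CD8 cells, and 5 of the 12 genes named between libraries lost their call. Without high doublet scores 407 genes differed between libraries, and 4 of the 12 lost their call. Classes of cells were compared within each library. Each group had 1 library, and no result came from a test. With the filter raised to 500 genes and 5% mitochondrial counts, which left 21, 27 and 38 cells, the share of filtered barcodes was 1.34%, 0.655% and 1.15%, the ratio to CD4 cells 0.350, 0.614 and 0.514, and the share of CD8 cells 29.2%, 39.7% and 27.1%. That filter left 7 genes higher and 8 lower than in CD4 cells. It left 1 higher and 4 lower than in the other CD8 cells, and 134 between libraries. Myo10 then had a log2 ratio, nearest to 0 over the libraries, of 0.19. Its counts in the CD8 cells were under 3 in every library and were set to 3. No change of direction is therefore read from that value. With at least 2 Cd8 UMIs the share was 1.33% in library 3, and 2 genes were higher than in the other CD8 cells. With Ccl5 and Nkg7 both at 0, the shares of barcodes were 1.15%, 0.485% and 0.588%, the ratios 0.279, 0.188 and 0.171, and the shares of CD8 cells 14.4%, 12.9% and 8.50%. There were then 3 genes higher and 4 lower than in CD4 cells, 7 lower than in the other CD8 cells and 214 between libraries. Doubling the UMI minimum gave 18 genes higher than in CD4 cells and 105 between libraries. With no minimum, 68 were higher than in CD4 cells, 196 higher than in the other CD8 cells and 4989 differed between libraries. Leaving out each library in turn gave 56 to 62 genes higher and 47 to 59 lower than in CD4 cells, 8 to 17 higher and 25 to 40 lower than in the other CD8 cells, and 35 (without library 1) to 207 (without library 2) between libraries, with 199 without library 3. With a library left out, fewer libraries had to meet the rule in the comparisons of classes. Chosen after seeing the data, a limit of at least 4 Cd8 UMIs gave shares of 2.32%, 1.04% and 1.19%, ratios of 0.561 in library 1 and 0.347 in library 3, 19.3% of CD8 cells in library 3 and 1 gene higher than in the other CD8 cells. Also chosen then, Ccl5 at 0 with any Nkg7 gave shares of 5.74%, 3.21% and 5.60%, ratios of 1.39, 1.25 and 1.63, and 71.6%, 85.3% and 81.0% of CD8 cells, with 87 genes higher and 41 lower than in CD4 cells and 19 higher and 30 lower than in the other CD8 cells. Over all alternatives, 46 of 684 list values moved by more than 0.2 on the log2 scale, and 49 of 325 log2 ratios of named genes against CD4 cells no longer met the 2-fold rule or its minimum, and the same held for 44 of 182 against the other CD8 cells and 35 of 156 between libraries. The cause of these changes was not tested beyond the construction of each alternative. Levels under 25.2, 59.1 and 51.4 CPM were too thin to be called between libraries.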

Other observations

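Receptor chains were found in most of the 383 Ccl5/Nkg7-low CD8 cells. A UMI of Trac, the alpha chain constant segment, was present in 83.6% of them, against 92.1% of CD4 cells. Of the beta chain constant segments, 3 cells had Trbc1 alone, 133 had Trbc2 alone, 243 had both and 4 had neither. Trbc1 and Trbc2 are near copies, and the split of reads between them is uncertain. Variable segments were thin at this depth: 25 Trav genes had 45 UMIs in 38 cells and 9 Trbv genes had 20 UMIs in 20 cells, so no clone was named. Trdv2-2, a delta chain segment, had 5 UMIs in 2 cells. Only 1 Trgv gene, Trgv2, was among the genes counted, and it had 0 UMIs, which says little about gamma chains.

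Ctla2a, an inhibitor of cathepsin-like cysteine proteases, had 3530, 1529 and 1546 CPM in the CD8 cells of libraries 1, 2 and 3. It had 3359, 1619 and 1841 CPM in CD4 cells and 4325, 2195 and 2513 CPM in B cells, so library 1 was highest in all 3 classes. Platelet markers were also highest in library 1, at 4377, 1716 and 1913 CPM in the CD8 cells. In B cells they summed to 5471, 2328 and 2766 CPM. The part of platelet RNA in the Ctla2a levels was not tested. Heat shock genes, by contrast, had list values of 0.04, -0.03 and -0.01 over the 3 libraries in the CD8 cells.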
